A study of Mus musculus with 4 samples.

Results

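Thrombospondins, tenascins, periostin, osteopontin and SPARC were followed at the RNA level in sorted cells of the mouse thoracic aorta. The set is 9 of the 32287 features counted in each library: Thbs1, Thbs2, Thbs3, Thbs4, Tnc, Tnxb, Postn, Spp1 and Sparc. They were taken by gene name and not by a cut on measured values, but with earlier results of these data known. Droplet single-cell RNA-seq, which reads the 3′ ends of transcripts and counts unique molecular identifiers (UMIs), was run on 4 libraries from mice 12 weeks old. All animals carried Wnt1-Cre2, a recombinase driver of the neural crest lineage, and the mT/mG reporter, which makes membrane eGFP in recombined cells and their descendants and membrane tdTomato in all others. Live single cells with ITGA8, an integrin subunit of smooth muscle cells, were sorted. Asc-GFP and Asc-RFP are the eGFP-positive and tdTomato-positive cells of the ascending aorta, and Arch-GFP the eGFP-positive cells of the aortic arch. Root is the aortic root; its label names no colour, so its barcodes were divided by their reporter UMIs. A barcode (a droplet taken as a cell) entered when it had 1000 or more detected genes and no more than 10% of its UMIs from mitochondrial genes. This kept 8031 barcodes of Arch-GFP, 4030 of Asc-RFP, 6408 of Asc-GFP and 2960 of Root, against 4710, 2450, 4050 and 1841 cells that the labels give after a filter of their own. In Root, 576 barcodes with at least 8 eGFP UMIs and at most 1 tdTomato UMI are called Root eGFP. Another 1832 with at least 2 tdTomato and fewer than 8 eGFP UMIs are called Root tdTomato, and 552 entered neither group.

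These proteins are matricellular or matrix-bound: they are secreted into the extracellular matrix and change how cells attach, signal and assemble fibres rather than carrying load as collagen and elastin do. Thrombospondins bind CD47, CD36 and integrins, and thrombospondin-1 can activate latent TGF-beta. Tenascins and osteopontin are ligands of integrins, integrin alpha-8 among them, and periostin and SPARC bind collagen and take part in its cross-linking and fibril assembly. In arteries, several of them are known for rising in injured or remodelling smooth muscle.

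Each group was 1 library or part of 1, so no difference between groups has a replicate check and no test was run. Levels are UMIs summed over the barcodes of a group, given as CPM, counts per 1000000 UMIs, with exact Poisson 95% intervals, and ratios have exact conditional binomial 95% intervals; all cover counting error only. The kept barcodes held 39691658 to 100987052 UMIs per library, with a median of 12628 to 13605 UMIs per barcode. Pairs of libraries shared 9 to 34 barcode sequences. The sorted colours matched the labels: eGFP was at 3838 CPM and tdTomato at 0.0396 CPM in Arch-GFP, at 3673 and 0.297 in Asc-GFP, and at 16.4 and 428 in Asc-RFP. All 11 smooth muscle markers were detected in every library, summing to 50829 to 58111 CPM. The 11 macrophage markers summed to 788 CPM in Root, 190 in Asc-RFP and at most 5.85 in the eGFP libraries, with Adgre1 at 0 in Arch-GFP. The 9 endothelial markers summed to 29.2 to 73.3 CPM, most in Root, with Cdh5, Emcn and Cldn5 at 0 in Arch-GFP. Barcodes with an Xist UMI and none of 4 Y-linked genes are called female, and those with the reverse male. Of the barcodes so sexed, females made up 29.1% in Arch-GFP, 54.4% in Asc-RFP, 70.1% in Asc-GFP and 87.8% in Root. The labels give neither the number nor the sex of the animals, so sex and animal cannot be told apart.

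Promoters were at hand for 8 of the 9 genes, from RefSeq on GRCm38.p6. The 100 bases just before the transcription start are shown for Postn, Tnc and Tnxb. Postn and Tnc were picked because they were high in the same barcodes of Root, Asc-GFP and Arch-GFP. Tnxb was picked because it differed between female and male barcodes in every group. Capitals mark matches to TATAA (the core of a TATA box, searched on the sense strand) or TGANTCA (an AP-1 site, which reads the same on both strands).

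Postn, chr3:54361007-54361106, + strand: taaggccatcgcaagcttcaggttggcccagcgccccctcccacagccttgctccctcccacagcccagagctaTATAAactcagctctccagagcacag
Tnc, chr4:64047016-64047115, − strand: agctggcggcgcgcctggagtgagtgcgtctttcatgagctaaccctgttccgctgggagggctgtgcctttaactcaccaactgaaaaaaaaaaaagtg
Tnxb, chr17:34670435-34670534, + strand: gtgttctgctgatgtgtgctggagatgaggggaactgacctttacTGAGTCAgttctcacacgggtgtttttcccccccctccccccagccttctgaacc

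The TATAA match of Postn began 26 bases before the start, the window of another RefSeq start of Postn held none, and 7.48% of 32851 windows of the same length held one. The TGANTCA match of Tnxb began 55 bases before its start, against 2.73% of all windows. The Tnc window shown held neither motif, while the window of another RefSeq start of Tnc held TATAA 27 bases before that start. GGGCGG, the GC box, was also searched on both strands; it lay in 24.7% of all windows, and among the genes studied here once before Thbs3 and 3 times before Thbs4. These matches describe the letters only.

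Thbs1, the thrombospondin best known as an activator of latent TGF-beta, was highest in the root and lowest in the eGFP cells of the ascending aorta and arch. Its gene (ENSMUSG00000040152) lies at chr2:118111876-118127133 on the + strand of mm10. Its level was 48.6 CPM (43.8 to 53.8) in Root eGFP and 24.4 CPM (22.5 to 26.4) in Root tdTomato. Asc-RFP had 11.8 CPM (10.9 to 12.8), Asc-GFP 3.06 CPM (2.69 to 3.45) and Arch-GFP 2.24 CPM (1.96 to 2.55). The 5 intervals did not overlap, and the levels spanned 21.7-fold, the widest range of the 7 genes with at least 5 CPM in a group. The intervals take UMIs as independent, but 1 Asc-GFP barcode held 85 of the 257 there. The order of Asc-GFP and Arch-GFP is therefore uncertain, and the share of barcodes with a Thbs1 UMI ran the other way, 1.05% against 1.36%. Root eGFP was 15.9-fold above Asc-GFP (log2 3.99, 3.76 to 4.23), and Arch-GFP was below Root eGFP by a log2 ratio of −4.44 (−4.69 to −4.20). Between the tdTomato groups the Root level was 2.06-fold that of Asc-RFP (log2 1.04, 0.88 to 1.20).

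Thbs1 UMIs came from few barcodes. A Thbs1 UMI was found in 261 of 2960 Root barcodes (8.82%, 7.82 to 9.90), 179 of 4030 Asc-RFP barcodes (4.44%, 3.83 to 5.12), 67 of 6408 Asc-GFP barcodes (1.05%) and 109 of 8031 Arch-GFP barcodes (1.36%). Thinned to 5000 UMIs per barcode, the shares were 5.80%, 2.58%, 0.558% and 0.662% in the same order. Macrophage-marker barcodes, with a median of 6832 UMIs, held one in 4 of 163 (2.45%). After thinning it was 0 of 91, which allows a share of up to 3.97%, above the thinned shares of all libraries but Root. Whether these cells make Thbs1 was not tested, so their share is not a background level. Of the 163, 103 lay in Root, with all 4 positives, and 58 in Asc-RFP, so they give no level for the eGFP libraries. Some barcodes held many Thbs1 UMIs: in Root, 118 barcodes with at least 3 UMIs held 84.6% of all Thbs1 UMIs. In Asc-GFP, 64 barcodes (1% of the library) held 98.8% of them, and a single barcode held 85 of the 257. Thbs2 and Thbs3 were far less concentrated, with 9.32% and 8.51% of their UMIs in the richest 1% of Asc-GFP barcodes. Postn, Sparc and Tnxb lay at the other end, with 5.26%, 5.50% and 5.88%.

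**Figure D1:**
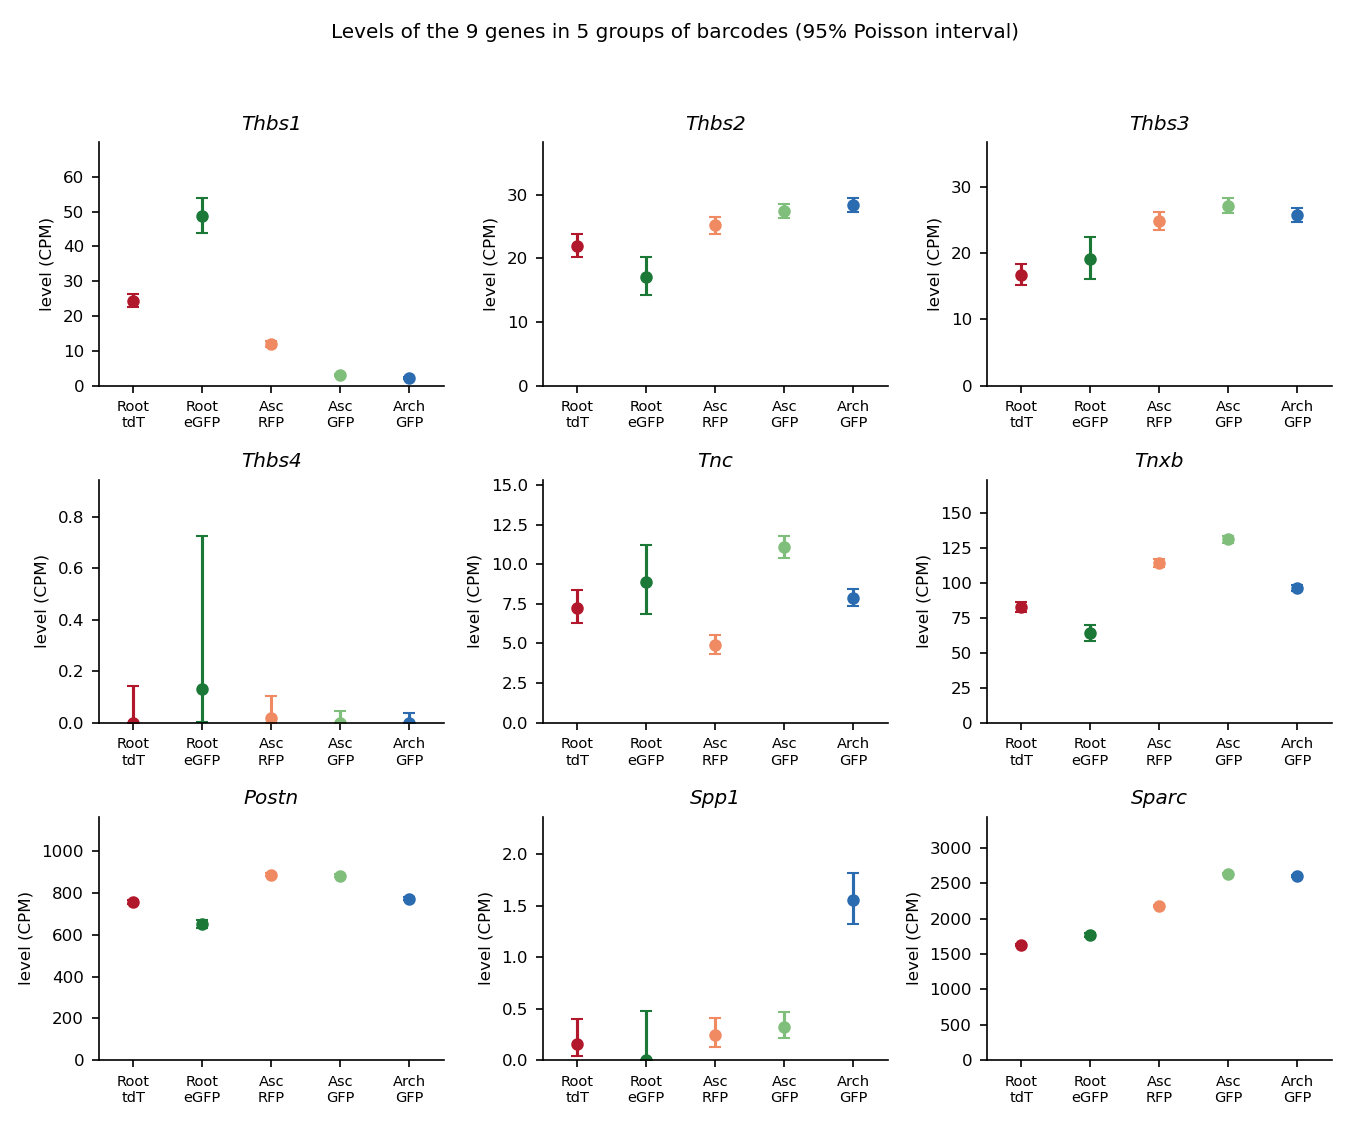
Level of each of the 9 genes (CPM, y axis from 0, own scale per panel) in Root tdTomato, Root eGFP, Asc-RFP, Asc-GFP and Arch-GFP; points are summed UMIs as CPM and bars exact Poisson 95% intervals for counting error. Thbs1 runs from 48.6 CPM in Root eGFP down to 2.24 CPM in Arch-GFP, Tnxb and Sparc are lowest in the 2 Root groups, and Thbs4 and Spp1 stay below 2 CPM.

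The leading higher genes of the Thbs1-rich barcodes differed between the root and the ascending aorta, while some leading lower genes were shared. Barcodes holding endothelial markers were high in Thbs1 in 3 libraries, at 106 CPM in the 52 such Root barcodes, 199 CPM in the 26 of Asc-RFP and 35.0 CPM in the 18 of Asc-GFP, while the 19 of Arch-GFP held 0 UMIs. They held 4.47%, 12.1% and 5.06% of the Thbs1 UMIs of Root, Asc-RFP and Asc-GFP, the last being 13 UMIs in 2 barcodes. Barcodes with 5 or more UMIs of fibroblast markers held 39.3%, 39.4% and 40.1%, and 27.4% in Arch-GFP. Their level was 35.7 CPM in Root, against 28.0 in barcodes with none of these markers. It was 17.5 against 7.98 in Asc-RFP, 12.0 against 1.88 in Asc-GFP and 2.88 against 2.08 in Arch-GFP. The fibroblast-marker level of Asc-GFP rests on 103 UMIs in 9 of 486 barcodes. Endothelial-marker and macrophage-marker barcodes were set aside for what follows. In Root, 112 barcodes with at least 3 Thbs1 UMIs, against 2560 with none, had Ptn (pleiotrophin, a secreted growth factor) at 64.5 against 3.84 CPM and Cytl1 at 54.7 against 3.03 CPM. They had less Emb (embigin), 32.2 against 210 CPM, and less Osr1, a transcription factor, 22.5 against 146 CPM. Among the genes studied here, they had Postn at 280 against 749 CPM and Tnxb at 34.7 against 83.4 CPM. In Asc-RFP, the 56 such barcodes had Vcam1, an adhesion molecule of activated vascular cells, at 383 against 15.4 CPM and Stmn1 at 134 against 6.43 CPM, while Postn was 961 against 893 CPM. In Asc-GFP, the 19 such barcodes had Timp1, an inhibitor of matrix metalloproteinases, at 287 against 10.04 CPM and Vcam1 at 359 against 17.9 CPM. In Arch-GFP, the 22 such barcodes had Ptgs2, which makes prostaglandins, at 171 against 10.4 CPM and Vcam1 at 178 against 19.5 CPM. Mylk4 was among the leading lower genes of both the Root set, 74.8 against 360 CPM, and the Asc-GFP set, 231 against 504 CPM. So was 2210407C18Rik, at 28.0 against 165 CPM and 66.7 against 215 CPM. The leading higher genes of the Root set were not looked up in the ascending sets, nor theirs in the Root set. Each set was picked by its Thbs1 count and its leading genes were chosen after their values were seen. Smooth muscle markers summed to 56385 against 51860 CPM in the Root set and 50091 against 54868 CPM in the Asc-GFP set. Immediate-early genes, a mark of cell stress or stimulation, were higher in all 4 sets, from 3159 against 2774 CPM in Root to 4206 against 2252 CPM in Asc-RFP. Fibroblast markers were 497 against 284 CPM in the Root set, 329 against 207 in Asc-RFP, 216 against 195 in Arch-GFP and 108 against 113 in Asc-GFP. Pericyte markers were 449 against 247 CPM in the Asc-GFP set. They were lower in the other sets, 53.5 against 86.8 CPM in Root, 101 against 214 in Asc-RFP and 420 against 508 in Arch-GFP. The sets of the eGFP libraries were also deeper, with a median of 20063 against 12575 UMIs in Arch-GFP and 17515 against 12940 in Asc-GFP. The part of these markers and of depth in the result was not tested.

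**Figure D2:**
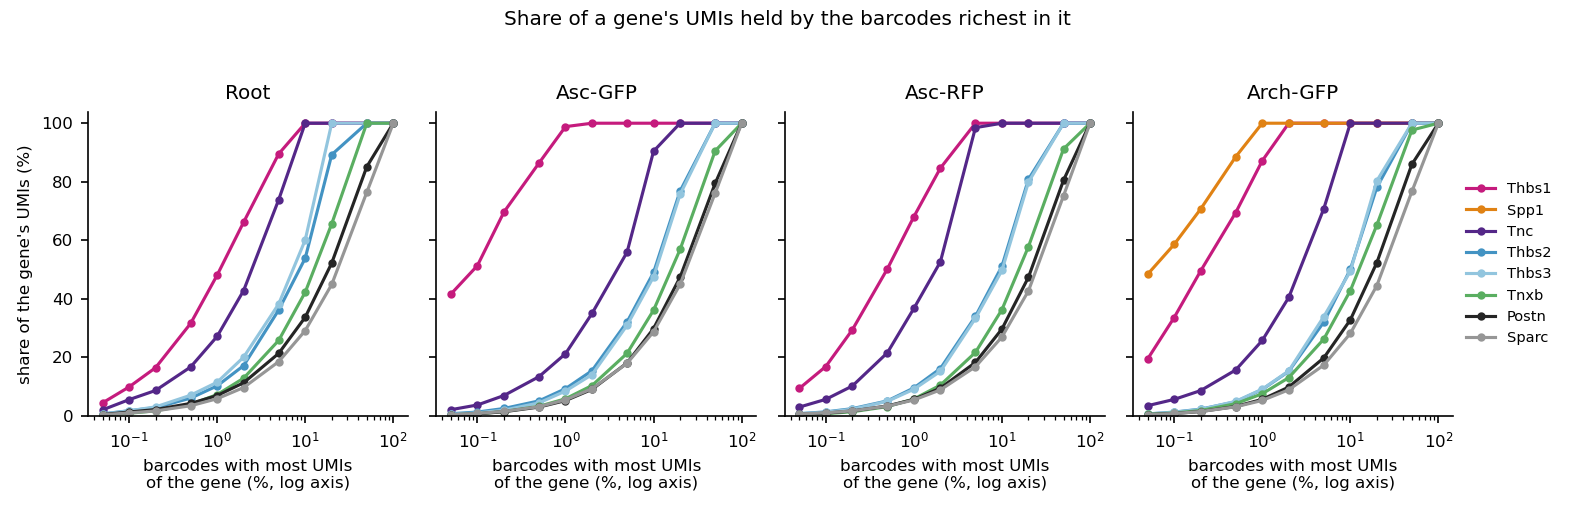
Share of a gene's UMIs (%, y axis) held by the barcodes richest in that gene (% of the library's barcodes, log x axis), for each of the 4 libraries; a gene with fewer than 100 UMIs in a library is not drawn. Thbs1 and, in Arch-GFP, Spp1 rise at the left, with 98.8% of the Asc-GFP Thbs1 UMIs in 1% of barcodes, while Postn and Sparc rise last.

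The Thbs1 level of the root also differed between female and male barcodes. It was 20.4 CPM (18.9 to 22.0) in 2409 female Root barcodes and 98.4 CPM (89.5 to 108) in 335 male ones. In Root eGFP it was 21.1 CPM in 477 female and 220 CPM in 64 male barcodes, and in Root tdTomato 18.3 CPM in 1505 female and 69.6 CPM in 225 male barcodes. At least 3 Thbs1 UMIs were held by 2.62% of female and 12.5% of male Root barcodes. The intervals of the female Root groups overlapped (17.7 to 24.9 and 16.5 to 20.2), with a log2 ratio of eGFP to tdTomato of 0.20, against 1.66 in male barcodes. In Asc-RFP the level was 10.2 CPM in female and 14.2 CPM in male barcodes, in Asc-GFP 3.85 and 2.40 CPM, and in Arch-GFP 2.05 and 2.53 CPM. Root eGFP, Root tdTomato and Asc-RFP kept their order above the other groups within each sex, while Asc-GFP was above Arch-GFP in female barcodes only. Root eGFP was above Asc-GFP by a log2 ratio of 2.45 in female and 6.52 in male barcodes, and Root tdTomato above Asc-RFP by 0.84 and 2.30. Male Root barcodes also had more macrophage-marker RNA, 2251 against 492 CPM, and more endothelial-marker RNA, 158 against 56.7 CPM. Of the 64 male Root eGFP barcodes, 0 had 5 UMIs of either list. The part of macrophages, endothelial cells and fibroblasts in the Thbs1 level of male barcodes was not tested.

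Thbs2 and Thbs3, a trimeric and a pentameric thrombospondin, were spread over many barcodes and were lower in the root. Thbs2 (ENSMUSG00000023885, chr17:14665500-14694235, − strand) was 17.1 CPM (14.3 to 20.3) in Root eGFP and 22.0 CPM (20.2 to 23.9) in Root tdTomato. Asc-RFP had 25.2 CPM (23.8 to 26.5), Asc-GFP 27.4 CPM (26.3 to 28.6) and Arch-GFP 28.4 CPM (27.3 to 29.4). Each interval met that of its neighbour in this order, and the ends of the order differed by 1.66-fold. Thbs3 (ENSMUSG00000028047, chr3:89215180-89226837, + strand) was 16.7 CPM (15.1 to 18.3) in Root tdTomato and 19.0 CPM (16.1 to 22.4) in Root eGFP, and 24.8 to 27.1 CPM in the other 3 groups. The Thbs3 intervals of the Root groups met each other and lay below those of the ascending and arch groups. Mtx1 overlaps Thbs3 on the opposite strand, and no strand setting for the counting was named in the labels or headers. After thinning, a Thbs2 UMI was found in 9.45% of Root and 11.5% to 12.4% of the barcodes of the other libraries. In Arch-GFP, Thbs3 was 20.01 CPM in female and 28.3 CPM in male barcodes, a log2 ratio of −0.50 (−0.65 to −0.35), while in the other libraries that interval held 0.

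Thbs4, a thrombospondin of tendon, heart and injured tissue (ENSMUSG00000021702, chr13:92751590-92794818, − strand), was close to absent. It had 1 UMI in Root, 1 in Asc-RFP and 0 in Asc-GFP and Arch-GFP, where 3 counts would be 0.0357 and 0.0297 CPM. The Asc-RFP UMI lay in an endothelial-marker barcode.

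Tnc, encoding tenascin-C, a six-armed integrin ligand of developing and remodelling arteries, was highest in the eGFP cells of the ascending aorta. Its gene is ENSMUSG00000028364, at chr4:63959785-64047015 on the − strand, where 8030451A03Rik overlaps it on the + strand. Asc-GFP had 11.1 CPM (10.4 to 11.8), Root eGFP 8.87 CPM (6.88 to 11.2) and Arch-GFP 7.87 CPM (7.33 to 8.44). Root tdTomato had 7.27 CPM (6.26 to 8.39) and Asc-RFP 4.89 CPM (4.32 to 5.52). The 4 highest groups overlapped their neighbours, and Asc-RFP lay below them all. Asc-GFP was 2.26-fold above Asc-RFP (log2 1.18, 0.98 to 1.38), with 1.23 in female and 1.19 in male barcodes. In male barcodes Asc-RFP was not lowest, with 5.43 CPM against 4.10 in Root tdTomato and 1.26 in Root eGFP. The log2 ratio of Root tdTomato to Asc-RFP was 0.73 in female and −0.41 (−1.36 to 0.42) in male barcodes. A Tnc UMI was found in 11.4% of Asc-GFP and 5.11% of Asc-RFP barcodes (5.17% and 2.08% thinned), against 1 of 163 macrophage-marker barcodes (0.613%).

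A gene with at least 5 CPM in either group was counted when the groups were at least 2-fold apart. Between the ascending libraries, 2 of the 7 genes measured passed, Tnc higher and Thbs1 lower in Asc-GFP (log2 −1.95, −2.17 to −1.74), where 1.28% of all 9711 measured genes did (0.360% higher and 0.916% lower). Root eGFP against Root tdTomato gave 0 of 7, beside 2.21% of 9855 genes (0.304% higher and 1.91% lower), with Thbs1 just under the line at a log2 ratio of 0.99 (0.81 to 1.18). Arch-GFP against Asc-GFP gave 0 of 6, beside 0.914% of 9733 genes (0.771% higher and 0.144% lower). In Root tdTomato against Asc-RFP, Thbs1 was the 1 of 7 that passed, higher in Root, beside 3.00% of 9888 genes (2.13% higher and 0.870% lower). Root eGFP against Asc-GFP gave 2 of 7, Thbs1 higher and Tnxb lower, beside 1.97% of 9745 genes (1.07% higher and 0.903% lower). Arch-GFP against Root eGFP gave 1 of 7, Thbs1 lower, beside 3.87% of 9878 genes (2.29% higher and 1.58% lower). Thbs1 made 4 of these 6 calls. With so few genes each count is a description, and comparisons that share a group share its counts.

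**Figure D3:**
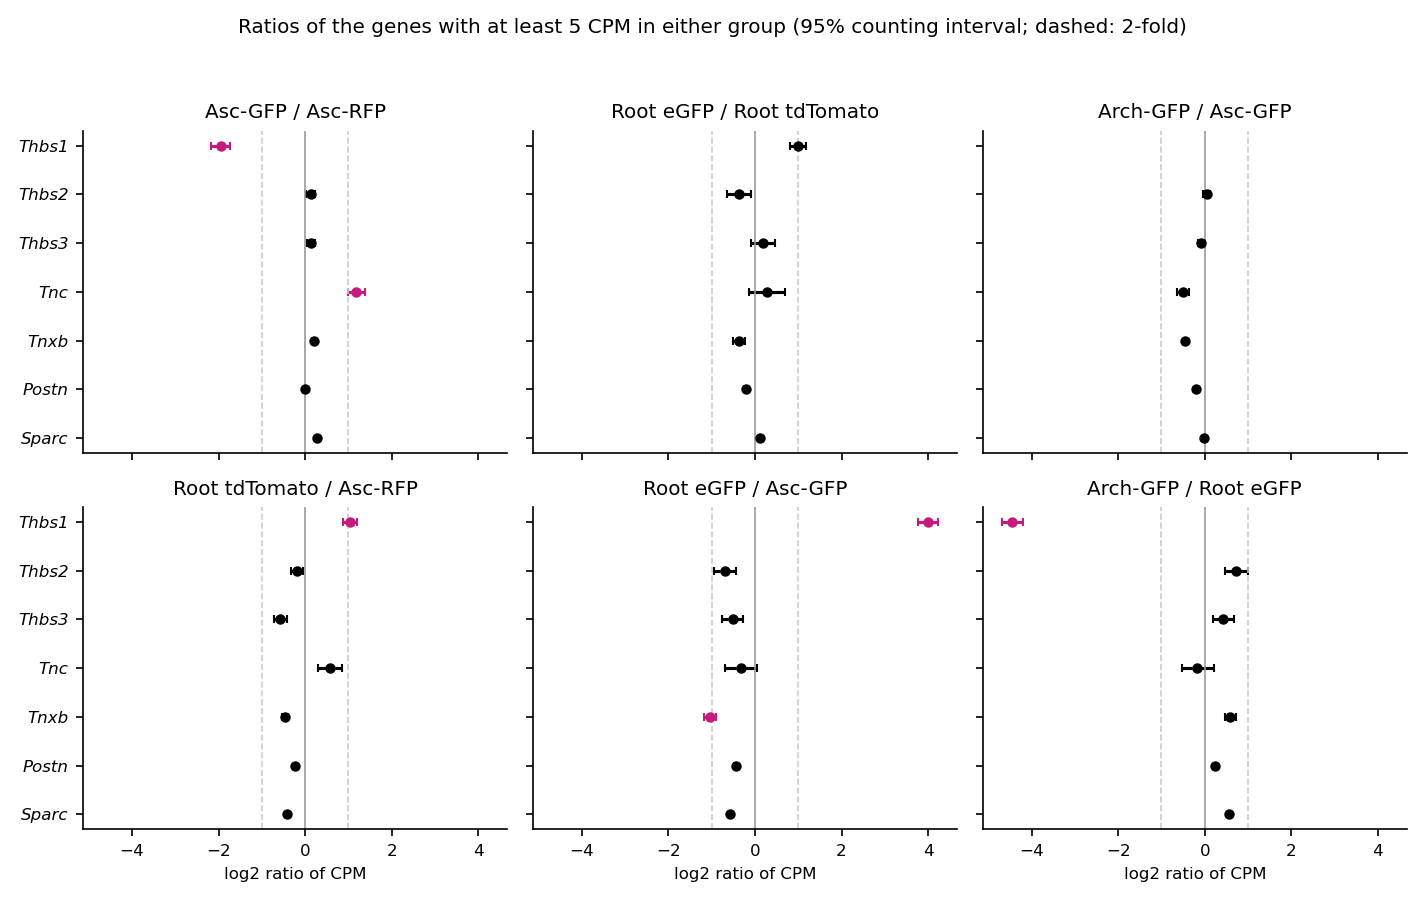
Log2 ratio of CPM (x axis) in the 6 comparisons for the genes with at least 5 CPM in either group; bars are exact 95% intervals for counting error, dashed lines mark 2-fold, and coloured points lie beyond it. Thbs1 lies beyond 2-fold in 4 panels and at 0.99 in Root eGFP against Root tdTomato, and Tnc lies beyond it between the ascending libraries.

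In barcodes rich in Tnc, Postn was high too in Root, Asc-GFP and Arch-GFP, while those of Asc-RFP were not examined. In Root, 44 barcodes with at least 2 Tnc UMIs had Postn at 1366 against 686 CPM in those without Tnc, and in Asc-GFP 130 such barcodes had it at 1220 against 855 CPM. In Arch-GFP, 113 such barcodes had Postn at 1143 against 749 CPM, with Timp1 at 338 against 14.0 CPM and Vcam1 at 195 against 15.9 CPM. Vcam1 was also higher in the Root set, 282 against 33.7 CPM. In Asc-GFP the leading gene after Tnc itself was fibronectin, Fn1, at 702 against 353 CPM. Tnc-rich barcodes were deeper, with medians of 16058.5 to 17073 UMIs against 12375.5 to 13199, and the part of depth in the result was not tested.

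Tnxb, encoding tenascin-X, a matrix protein that spaces collagen fibrils and whose loss gives a form of Ehlers-Danlos syndrome, was lowest in the root and followed sex in every library. Its gene (ENSMUSG00000033327, chr17:34670535-34719815, + strand) is overlapped on the opposite strand by Cyp21a2-ps and Gm24389. The level was 64.1 CPM (58.6 to 70.1) in Root eGFP, 82.6 CPM (79.2 to 86.2) in Root tdTomato and 96.4 CPM (94.5 to 98.4) in Arch-GFP. Asc-RFP had 114 CPM (111 to 117) and Asc-GFP 131 CPM (129 to 134). No 2 of these intervals overlapped. Root eGFP was 2.05-fold below Asc-GFP (log2 −1.04, −1.17 to −0.90). Female barcodes had more Tnxb than male ones in all 4 libraries, at 137 against 82.3 CPM in Arch-GFP, 128 against 97.8 in Asc-RFP, 144 against 107 in Asc-GFP and 81.4 against 64.0 in Root. The gap was widest in Arch-GFP, with a log2 ratio of 0.73 (0.67 to 0.80). In female barcodes Arch-GFP and Asc-GFP differed by a log2 ratio of −0.08, in male barcodes by −0.38 (−0.45 to −0.31), and over all barcodes by −0.45 (−0.49 to −0.41).

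Sparc, encoding a collagen-binding glycoprotein also called osteonectin, showed both of these patterns. Its gene is ENSMUSG00000018593, at chr11:55394500-55423183 on the − strand. The level was 1626 CPM (1610.04 to 1641) in Root tdTomato and 1773 CPM (1743 to 1803) in Root eGFP. Asc-RFP had 2179 CPM (2166 to 2191), Asc-GFP 2639 CPM (2628 to 2649.9) and Arch-GFP 2606 CPM (2596 to 2616), and no 2 of the 5 intervals overlapped. The ends of the order differed by 1.62-fold, and a Sparc UMI was found in 98.2% to 99.8% of the barcodes of each library. Female barcodes were again higher in all 4 libraries: 3183 against 2383 CPM in Arch-GFP, 2429 against 1919 in Asc-RFP, 2936 against 2060.03 in Asc-GFP and 1713 against 1258 in Root. These gaps are log2 ratios of 0.34 to 0.51, larger than the 0.28 between Asc-GFP and Asc-RFP over all barcodes. The root stayed lowest within each sex. Arch-GFP was above Asc-GFP within each sex, by a log2 ratio of 0.12 in female and 0.21 in male barcodes, and below it over all barcodes (−0.02). Free RNA was not removed: macrophage-marker barcodes held 614 CPM of Sparc and 241 CPM of Postn, below the level of either gene in all 5 groups.

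**Figure D4:**
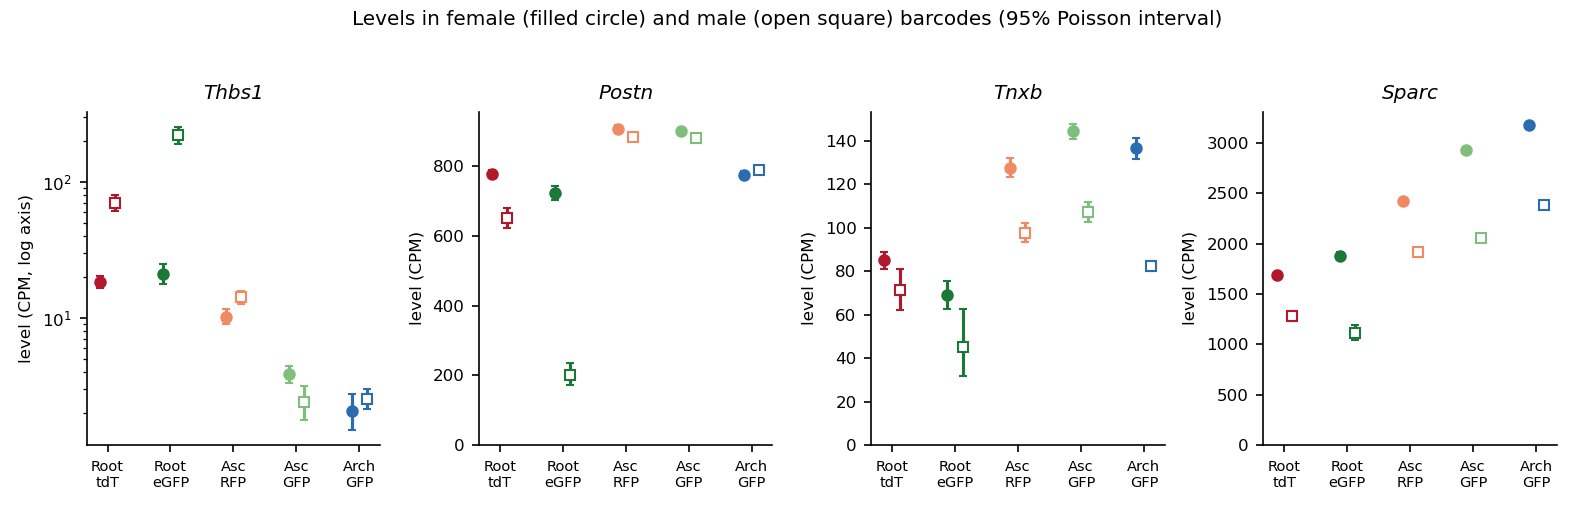
Levels (CPM, log y axis for Thbs1 and from 0 for the rest) of Thbs1, Postn, Tnxb and Sparc in female (filled circles) and male (open squares) barcodes of 5 groups; bars are exact Poisson 95% intervals. Tnxb and Sparc are higher in female barcodes of every group, and Thbs1 is higher in male barcodes of both Root groups, 220 against 21.1 CPM in Root eGFP.

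Postn, encoding periostin, was expressed at a like level in all groups by the sum, but not by every barcode. Its gene (ENSMUSG00000027750) lies at chr3:54361109-54391037 on the + strand. Asc-RFP had 889 CPM (881 to 897) and Asc-GFP 883 CPM (877 to 889), and their intervals overlapped. Lower levels followed, 774 CPM (768 to 779) in Arch-GFP, 756 CPM (746 to 767) in Root tdTomato and 651 CPM (633 to 669) in Root eGFP. The full range was 1.37-fold, the narrowest of the 7 genes. In Root eGFP the sexes differed, at 723 CPM in 477 female and 201 CPM in 64 male barcodes, while in Asc-GFP, Asc-RFP and Arch-GFP the log2 ratio of female to male was within 0.04 of 0. The low value rests on 64 barcodes and was under the macrophage-marker level given above.

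Among barcodes with at least 5000 UMIs and no macrophage or endothelial markers, those without any Postn UMI made up 7.55% (6.58 to 8.61) of Root and 7.38% (6.77 to 8.02) of Arch-GFP. In Asc-GFP and Asc-RFP they made up 0.882% (0.659 to 1.15) and 1.51% (1.13 to 1.97). By sex the share was 7.49% of female and 7.35% of male barcodes in Arch-GFP, and 5.97% and 16.6% in Root. A Sparc UMI was missing from 1 of these Root barcodes and from 0 in the other libraries, which allows a share of up to 0.0509%, 0.0853% and 0.0443% in Asc-GFP, Asc-RFP and Arch-GFP.

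The Postn-free barcodes of the arch had more Sparc than the rest of their library, and those of the root less. Thbs1 was higher in the Postn-free barcodes of both Root and Asc-RFP. In Arch-GFP, 500 of them had Sparc at 4488 CPM against 2489 CPM in barcodes with Postn, and Tnxb at 23.7 against 102 CPM. They had more Fbln1 (fibulin-1, a matrix glycoprotein), 275 against 26.8 CPM, more Adamtsl1, 301 against 30.6 CPM, and more Hhip, a hedgehog-binding protein, 72.3 against 4.66 CPM. Pericyte markers summed to 1794 against 439 CPM, fibroblast markers to 530 against 179 CPM and smooth muscle markers to 34624 against 51814 CPM in these barcodes. In Root, 203 Postn-free barcodes had Sparc at 1294 against 1704 CPM and Thbs1 at 188 against 20.01 CPM. As in the arch they had less Tnxb, 59.5 against 81.6 CPM, and more Fbln1, 80.7 against 11.4 CPM. They had more Fst (follistatin, which binds activins), 88.6 against 6.40 CPM, and more of the proteoglycan Lum, 252 against 26.0 CPM. In Asc-RFP, 53 Postn-free barcodes also had more Thbs1, 112 against 9.16 CPM, and more Lum, 74.4 against 5.58 CPM. In Asc-GFP, 52 had Thbs1 at 8.05 against 2.92 CPM, the former from 4 UMIs. Fibroblast markers summed to 437 against 282 CPM in the Root set, while smooth muscle markers were 50467 against 52539 CPM. The part of these other markers in the differences was not tested.

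Sorted by their Postn level, barcodes gave the same picture in steps. In Arch-GFP the Sparc level was 4488 CPM with no Postn UMI, 2976 CPM in the lowest of 4 equal parts of the remaining barcodes, and 2335 to 2364 CPM in the upper 3 parts. In Root it ran the other way, from 1294 CPM without Postn to 2042 CPM in the highest part, and in Asc-GFP from 2092 to 3116 CPM. Across barcodes of the same library, the rank correlation of Postn and Sparc (UMIs per barcode after thinning to equal depth) was −0.21 over 6778 Arch-GFP barcodes. It was 0.21 over 2690 Root, 0.15 over 5896 Asc-GFP and 0.09 over 3515 Asc-RFP barcodes. Thbs1 in Root was 188 CPM without Postn and 52.02, 12.6, 7.76 and 9.60 CPM in the 4 parts from low to high Postn.

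**Figure D5:**
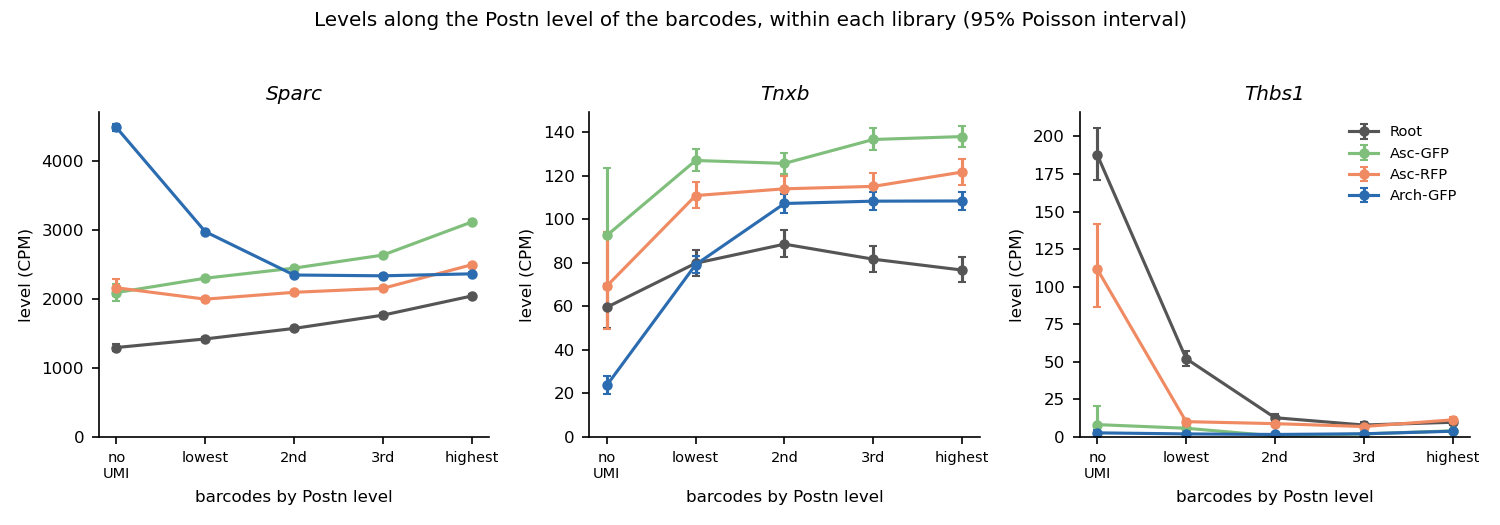
Levels (CPM, y axis from 0) of Sparc, Tnxb and Thbs1 in barcodes sorted by their Postn level (x axis: no Postn UMI, then 4 equal parts of the barcodes with one), within each library; bars are exact Poisson 95% intervals. Sparc is highest without Postn in Arch-GFP, at 4488 CPM, and lowest without it in Root, at 1294 CPM, where Thbs1 is highest, at 188 CPM. Thbs1 without Postn is also high in Asc-RFP, at 112 CPM.

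Spp1, encoding osteopontin, a secreted ligand of CD44 and integrins, was rare. Its gene (ENSMUSG00000029304, chr5:104435118-104441050, + strand) shares its strand with the overlapping Gm42793. Arch-GFP had 157 UMIs, Asc-GFP 27, Asc-RFP 13 and Root 4, all of the last in 1 barcode. The level in Arch-GFP was 1.55 CPM (1.32 to 1.82), 4.84-fold that of Asc-GFP at 0.321 CPM (0.212 to 0.467), and all levels lay below the 5 CPM that a gene needed to enter the counts above. The Arch-GFP UMIs lay in 58 of 8031 barcodes, 42 of them in a single barcode, and 64.3% in 11 barcodes with at least 3 UMIs. The share of barcodes with a UMI was 0.722%, and 0.397% after thinning, and the 1 macrophage-marker barcode of 163 with a UMI (0.613%, and 1.10% of 91 thinned) lay in Asc-RFP, which gives no background level for Arch-GFP. Without macrophage and endothelial-marker barcodes, 57 Arch-GFP barcodes with Spp1 had Timp1 at 1203 against 14.3 CPM, Vcam1 at 552 against 17.6 CPM and Fbln2 at 154 against 5.35 CPM. They also had the cell-cycle genes Top2a, 82.3 against 1.06 CPM, and Hist1h1b, 69.7 against 0.340 CPM. Their median of 6148 UMIs was below the 12632.5 of the rest.

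Genes whose level followed that of 1 of these genes over the 5 groups were sought by Euclidean distance of log2(CPM + 1), centred on each gene's mean, among 9670 genes. Nearest to Thbs1 were Col8a1, a short-chain collagen, at a distance of 0.757, then Tmem176b at 1.04 and Pln, phospholamban, at 1.17. Col8a1 was 27.4 CPM in Root eGFP, 24.6 in Root tdTomato, 12.05 in Asc-RFP, 2.96 in Asc-GFP and 1.25 in Arch-GFP. Nearest to Tnc were Alcam (0.257), Esam (0.289) and Cited4 (0.314), and nearest to Tnxb were Galnt16 (0.224), Rsph1 (0.269) and Gm19705 (0.280). The other 4 measured genes spanned less than 2-fold and were not searched.

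For the gene lists that follow, counts stand beside 0.914% to 3.87% of all measured genes at least 2-fold apart, by comparison as given above. With so few genes per list, these counts are descriptions. Of 20 listed receptors of these proteins, 19 were measured between the ascending libraries, and Stab1, a scavenger receptor that takes up SPARC and is typical of macrophages, was lower in Asc-GFP, 0.155 against 6.60 CPM, with a list median of 0.05 beside 0.02 over all genes. Root tdTomato against Asc-RFP gave 3 of 20 higher: Stab1, the thrombospondin receptor Cd36 (6.53 against 2.91 CPM) and Itga4 (26.9 against 12.7 CPM), with a median of −0.02 beside 0.01. Stab1 and Cd36 were the 2 of 20 lower in Root eGFP than in Root tdTomato, at 0.782 against 19.4 CPM and 0.130 against 6.53 CPM. Macrophage markers differed the same way, 23.3 against 731 CPM, and their part was not tested. Itga4, an osteopontin and fibronectin receptor subunit, was the 1 of 18 lower in Arch-GFP than in Asc-GFP, 9.18 against 19.7 CPM, and than in Root eGFP, at 24.1 CPM. In Root eGFP against Asc-GFP 0 of 18 passed. Itga8, the sort antigen, was 1271 to 1481 CPM in the 4 libraries, and Cd47 99.4 to 117 CPM.

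Comp, the fifth thrombospondin, was 2.65 CPM in Asc-RFP against 13.8 in Asc-GFP, the 1 of 5 measured relatives that passed, so that it and Tnc were both higher in the eGFP cells there. Comp was 20.5 CPM in Root eGFP, 11.9 CPM in Root tdTomato and 8.48 CPM in Arch-GFP. Thsd7a, which carries thrombospondin repeats, was 11.6 CPM in Root eGFP and 11.8 CPM in Root tdTomato, against 3.98 CPM in Arch-GFP, 3.64 in Asc-GFP and 1.80 in Asc-RFP. Spock2, a testican of the SPARC family, was 8.59 CPM in Arch-GFP against 0.416 CPM in Asc-GFP (log2 4.37). It was at 0 in Root eGFP, so Arch-GFP was higher there by a log2 ratio of at least 4.46, taken against a floor of 3 counts in the group. Smoc1, another SPARC relative, was 212 CPM in Arch-GFP and 88.8 CPM in Root eGFP. Tgfbi, a relative of periostin, was 9.33 CPM in Root tdTomato, 4.10 CPM in Asc-RFP and at 0 in Root eGFP, a log2 ratio to Root tdTomato of −4.58 or less against the same floor. The list had 3 of 7 higher in Root tdTomato than in Asc-RFP (median −0.01 beside 0.01), and 2 higher and 2 lower of 7 in Arch-GFP against Root eGFP (median 0.09 beside 0.05).

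The matrix partners of the set were lower in the root as a list, though few were 2-fold apart. Their median log2 ratio over 15 measured genes was −0.35 in Root tdTomato against Asc-RFP (0.01 over all genes), −0.37 in Root eGFP against Asc-GFP (−0.01) and 0.54 in Arch-GFP against Root eGFP (0.05). In the last of these, Col6a1 and Col6a2 of collagen VI passed, at 212 against 88.8 CPM and 236 against 94.4 CPM. Decorin, Dcn, was the exception, 143 CPM in Root tdTomato, 59.0 in Asc-RFP, 28.4 in Root eGFP and 16.1 in Asc-GFP. Of 12 TGF-beta ligands and responsive genes, 0 were 2-fold apart in 5 of the comparisons, where 0.914% to 3.00% of all measured genes were. For 12 genes a count of 0 is near those shares and is no result about this list. In Arch-GFP against Root eGFP 2 of 12 were lower, beside 1.58% of all genes, among them Ccn1, a matricellular protein of the CCN family, at 419 against 940 CPM. Of 14 genes of modulated smooth muscle cells, 4 of 12 were higher in Root tdTomato than in Asc-RFP: Lum, Dcn, Col8a1 and Vcam1 (median 0.30 beside 0.01). In the ascending aorta 3 of 12 were lower in Asc-GFP (Col8a1, Lum and Dcn; median −0.15 beside 0.02). Arch-GFP against Root eGFP gave 4 of 12 higher and 1 lower (median 0.01 beside 0.05). The higher ones were Timp1 (21.8 against 7.82 CPM), Vcan (128 against 48.4 CPM), Lgals3 (40.7 against 17.7 CPM) and Col15a1 (239 against 119 CPM), the last named after its value was seen. Col8a1 was the lower one, 1.25 against 27.4 CPM. Root eGFP against Root tdTomato gave 2 of 12 lower, Dcn and Lum (7.56 against 32.1 CPM; median −0.25 beside 0.01). Root eGFP against Asc-GFP gave 2 of 12 higher, Col8a1 and Lum (median −0.00 beside −0.01), and Arch-GFP against Asc-GFP 0 of 10 (median 0.19 beside 0.03).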

How the data were processed

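Cells of the aortic root, ascending aorta and aortic arch of Wnt1-Cre2.mT/mG mice were profiled with the Chromium 3′ v3.1 chemistry, per the labels' protocols. The deposited values are whole-number UMI counts per gene and barcode, made by the authors with Cell Ranger 7.0.0 per the file headers; mm10 and Seurat 4.3 are named in the submitters' processing notes. Strand setting and filter thresholds of the study are not given in the sources used here.

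Barcodes entered with 1000 or more genes and no more than 10% of UMIs from mitochondrial genes. Doublets were not called and free RNA was not removed. Counts were summed per group (39691658 to 100987052 UMIs per library) and given as CPM with exact Poisson 95% intervals. Ratios had exact conditional binomial intervals, and shares exact (Clopper-Pearson) ones, also after thinning to 5000 UMIs per barcode. Barcodes with 5 or more UMIs of a marker list are called macrophage-marker or endothelial-marker barcodes; this is a range and not a cell type. With 1 library per group no test was made. All 9 genes were named, as were up to 4 genes per list and comparison with the largest ratios past 2-fold, and the 3 genes nearest in pattern to each member with a 2-fold range. A gene that this rule names is not reported here. Leading genes of barcode sets, at 50 CPM or more on either side, were chosen after their values were seen. The members and lists were chosen with earlier results of these data known. Promoters came from RefSeq (GRCm38.p6) and gene positions from GENCODE on mm10. Alternatives were other barcode filters, CPM floors, reporter limits, single sexes, barcodes low in immediate-early genes, barcodes without other cell types' markers, and means of per-barcode CPM; 2 alternatives were added after seeing the data. Python 3.11.15, numpy 2.4.6, scipy 1.17.1, pandas 2.3.3 and matplotlib 3.10.9 were used, and the scripts were tested on simulated data.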

Additional observations from a re-analysis of the deposited data

Results flagged for a closer look

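For 3 genes the eGFP and tdTomato cells differed in opposite directions in the root and the ascending aorta, which is what drew attention to them. The log2 ratio of eGFP to tdTomato for Thbs1 was 0.994176 in Root and −1.95436 between Asc-GFP and Asc-RFP. For Thbs2 it was −0.36547 in Root and 0.124218 in the ascending aorta, and for Tnxb −0.365647 and 0.203069. For Sparc, the ratio of Root eGFP to Root tdTomato was −0.204774 in male and 0.154306 in female barcodes, opposite in the sexes. None of these differences was tested, since each group is 1 library or part of 1.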

How the results depend on the processing

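Counts of genes at least 2-fold apart stayed within 1.5 times their main value in 63 of 80 recomputations. Of 448 recomputed ratios, 125 moved outside the counting interval of their main value. No gene called in the main setting changed direction, but some ratios that were not called changed sign. Among them were Tnc in Arch-GFP against Root eGFP, in 4 of 12 settings, and Sparc in Arch-GFP against Asc-GFP, in 3 of 9. In Arch-GFP against Asc-GFP the count was 1 (Spp1) with a floor of 1 UMI. In Arch-GFP against Root eGFP it was 2 with that floor and 5 in male barcodes (Thbs2, Tnc, Postn and Sparc higher, Thbs1 lower). Male Root eGFP, on which this and the male counts below rest, is 64 barcodes with 8 Thbs2 UMIs and 1 Tnc UMI. No share over all genes is given here for the alternatives, so their counts are descriptions and not results about these genes. Asc-GFP against Asc-RFP gave 0 with a 20 CPM floor, under which both Tnc and Thbs1 lie. Root eGFP against Asc-GFP gave 1, Thbs1, in barcodes low in immediate-early genes, with the mean of per-barcode CPM, and without macrophage, endothelial and fibroblast-marker barcodes, and 5 in male barcodes. Root eGFP against Root tdTomato gave 1, Thbs1, with an eGFP limit of 4 UMIs, with the stricter barcode filter (2000 genes, 5% mitochondrial) and, chosen after seeing the data, without macrophage and endothelial-marker barcodes, and 2 in male barcodes (Thbs1 and Postn). Root tdTomato against Asc-RFP gave 0 with all deposited barcodes, the stricter filter, female barcodes, the mean of per-barcode CPM and, chosen after seeing the data, with at most 3 UMIs counted per barcode. Apart from the floor, the cause was not tested. Thbs1 ranged from −2.56 to −1.41 in Asc-GFP against Asc-RFP, 0.20 to 1.66 in Root eGFP against Root tdTomato, 0.47 to 2.30 in Root tdTomato against Asc-RFP and 2.45 to 6.52 in Root eGFP against Asc-GFP. Tnc stayed between 1.02 and 1.25 in Asc-GFP against Asc-RFP. No paired analysis was possible because each group is 1 library and its replicate number only names it. Intervals cover counting error and not the spread between animals, and depth leaves Thbs4 and Spp1 too low to compare.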
